A study of Mus musculus with 18 samples.

Results

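The comparison asked whether fibroblasts on a stiff gel whose myosin tension was blocked carried the same mRNA levels as untreated fibroblasts on a soft gel. It used 9 of the 18 libraries of the series, of which 8 had clear labels. Tested were the 16021 of 22019 listed genes whose signal exceeded 1 in at least 3 of the 18 libraries, which include libraries outside the fit. The signal is the deposited library-scaled read count of a gene, in which values under 1 had been set to 1. All cells were NIH 3T3, a mouse embryonic fibroblast line. Those of the 8 clearly labelled libraries carried the Tet-ON 3G transactivator and a retroviral doxycycline-inducible SS-GFP-KDEL construct (KDEL cells). This is a GFP held in the endoplasmic reticulum that served as the control protein of the study. The KDEL cells were sorted for fluorescence into 1 stable line, so the 8 libraries share that line. All cells had 1 µg/ml doxycycline for 48 hr on fibronectin-coated polyacrylamide gels. The untreated soft group (KDEL, 1 kPa) comprised libraries 4, 16 and 28. The Y27 group (KDEL, 308 kPa, 25 µM Y27632 for 48 hr) comprised libraries 12, 24 and 36. The blebbistatin group (KDEL, 308 kPa, 10 µM blebbistatin for 48 hr) comprised libraries 10 and 22. Library 34 was labelled as empty vector on 308 kPa, with Y27 in one label and blebbistatin in another, so it stayed out of the fit and its values are given apart. Untreated KDEL cells on 308 kPa (libraries 8, 20 and 32) entered the same fit and are quoted only beside the inhibited cells. Inhibited and soft-gel cells differed in both stiffness and inhibitor, so each difference holds both, and untreated 308 kPa, set against the same soft libraries, gives the difference in stiffness without inhibitor.

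Non-muscle myosin II pulls on actin filaments and, through focal adhesions, on the substrate. Phosphorylation of the myosin light chain raises this pull. Y27632 acts upstream of myosin and blebbistatin inhibits the myosin ATPase itself, so the agents lower tension at different steps. On compliant gels fibroblasts build little tension, and 2 pathways are known to carry the mechanical state to the nucleus: MRTF, which is released from actin monomers and activates SRF target genes, and YAP/TAZ, which enter the nucleus of spread cells and act on TEAD target genes.

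The 12 libraries described here held an estimated 14260000 to 19460000 read pairs, with 33.5 to 35.2% of genes at the lowest value. Fibroblast markers were abundant throughout: Col1a1 ranged from 44800 to 118100 and Vim from 43500 to 144800. Of the markers of other cell types, Epcam and Krt18 (epithelial), Cd3e (T cells) and Myod1 (muscle) were at the lowest value in 12 of 12 libraries. The epithelial markers Cdh1 (88 to 311) and Krt14 (32 to 871.8) and the muscle markers Des (181 to 413.5) and Acta1 (10.8 to 376.5) were above it in all 12. Sun1, the nuclear envelope gene whose lumenal part makes up the dominant-negative construct of the series, ranged from 2785 to 3799 in the 12 libraries, none of which was labelled with that construct. Library 8, untreated on 308 kPa, stood apart. Its mean log2 level of 30 G2/M genes was 9.22, against 11.52 to 12.16 in the 11 others, and its mean distance to the 10 other fitted libraries was 0.865. It belongs to none of the groups compared but shares their estimate of spread, so counts are also given without it. Library 20, untreated on 308 kPa, had soft-gel values of Vps25 and Ramp2 (given with those genes).

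Over all genes, no difference between inhibited cells on the stiff gel and untreated cells on the soft gel passed the test. A gene passed where limma gave a p of under 0.05 after Benjamini-Hochberg adjustment and the difference was 2-fold or more. For Y27, 0 of 16021 genes (0%) passed, and 0 (0%) did so for blebbistatin or for the mean of both. At an unadjusted p under 0.05, 808 genes (5.04%) differed with Y27, of which 439 (2.74%) were higher and 369 (2.3%) lower than on the soft gel. With blebbistatin these were 480 genes (3%), of which 225 (1.4%) were higher and 255 (1.59%) lower. For the mean of both these were 722 genes (4.51%). At any p, 451 genes (2.82%) differed by 2-fold or more with Y27, 473 (2.95%) with blebbistatin, 301 (1.88%) in the mean of both and 349 (2.18%) on the untreated stiff gel. The smallest adjusted p was 0.0972 for Y27, at Tspan15, and 0.518 for blebbistatin, at Efs. Untreated cells on 308 kPa gave 371 genes (2.32%) against the same soft libraries, a count that was 1929 without library 32 and 1275 without library 20. Without library 8 the unadjusted counts were 1345 (8.4%) for Y27 and 826 (5.16%) for blebbistatin, with 1 gene passing the adjusted threshold in each. With only the 8 libraries of the 3 compared groups they were 1600 (9.99%) and 1037 (6.47%), with 3 and 2 genes passing. Leaving out each fitted library in turn gave 531 (without library 16) to 1345 genes for Y27, 344 (without library 28) to 826 for blebbistatin and 457 (without library 16) to 1212 for both. With library 34 added to the blebbistatin group 593 genes (3.7%) had an unadjusted p under 0.05 and 0 passed, and with library 34 added to the Y27 group 823 (5.14%) did and 1 passed.

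The distance between 2 libraries, the root mean square of the log2(signal + 1) differences over the tested genes, is given for each kind of pair. The 3 soft libraries lay 0.543 apart on average, from 0.519 to 0.56. Y27 libraries lay 0.585 from soft libraries, from 0.501 to 0.66, and 0.569 from each other. Blebbistatin libraries lay 0.554 from soft libraries, from 0.489 to 0.649, and 0.51 from each other. The ranges therefore overlap with the spread among soft libraries. Within a run of consecutive library numbers (3 to 12, 15 to 24 or 27 to 36, which the sources used here tie to no culture day) the distances from soft were smaller, 0.537 for Y27 and 0.507 for blebbistatin. Against untreated 308 kPa without library 8, Y27 lay 0.621 and blebbistatin 0.593 away. Untreated 308 kPa without library 8 lay 0.55 from soft. Library 34 lay 0.639 from soft, 0.63 from Y27 and 0.638 from blebbistatin, further from each than the members of those groups on average.

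**Figure D1:**
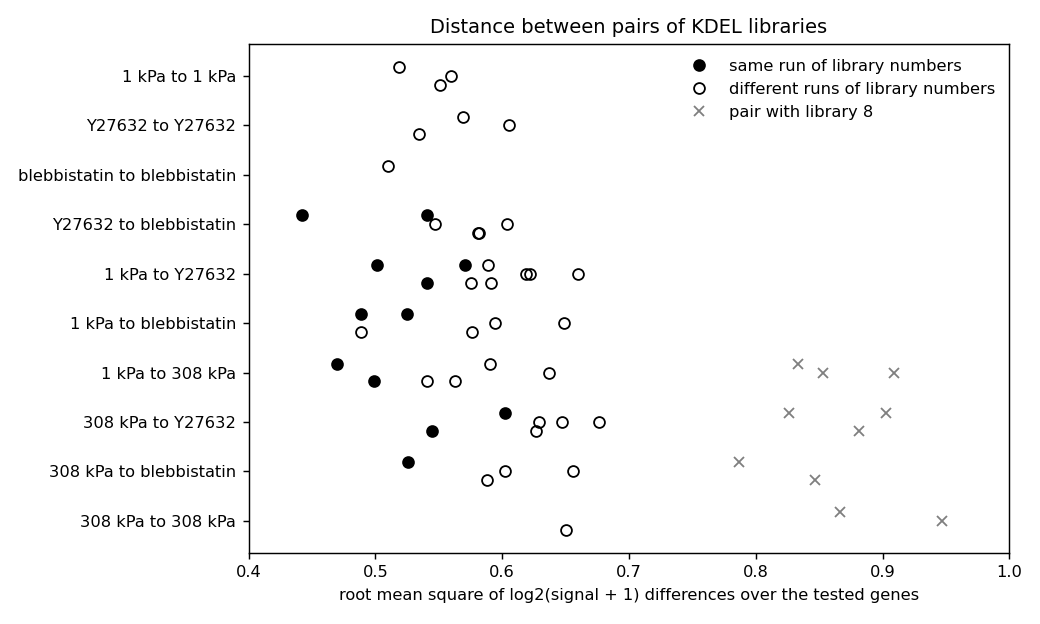
Distance between pairs of KDEL libraries, as the root mean square of log2(signal + 1) differences over 16021 genes (x axis, starting at 0.4); each mark is a pair, filled where both libraries belong to the same run of library numbers and a cross where library 8 is in the pair. Pairs of soft with Y27 (0.501 to 0.66) and of soft with blebbistatin (0.489 to 0.649) overlap with pairs of soft libraries (0.519 to 0.56), and all pairs with library 8 lie at 0.787 or above.

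A missed threshold does not show equal levels, so the interval of each difference was read as well. For Y27 the 95% interval lay within 2-fold of the soft gel for 11231 genes (70.1%), and for blebbistatin for 10682 genes (66.7%), with 11911 (74.3%) for the mean of both. Among the 8010 genes above the median signal of 596 it did so for 91.8% with Y27 and 90% with blebbistatin. The untreated stiff gel gave 69.9% of all genes and 91.2% of those above the median. The median interval reached 0.34 to each side on the log2 scale for Y27 and 0.38 for blebbistatin in the upper signal range, and 0.76 and 0.85 in the lower. In the range from 10 to 30 signal units only 13.92% with Y27 and 8.84% with blebbistatin were bounded, so for most genes of that range the interval held differences of 2-fold or more at this depth and number of libraries.

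**Figure D2:**
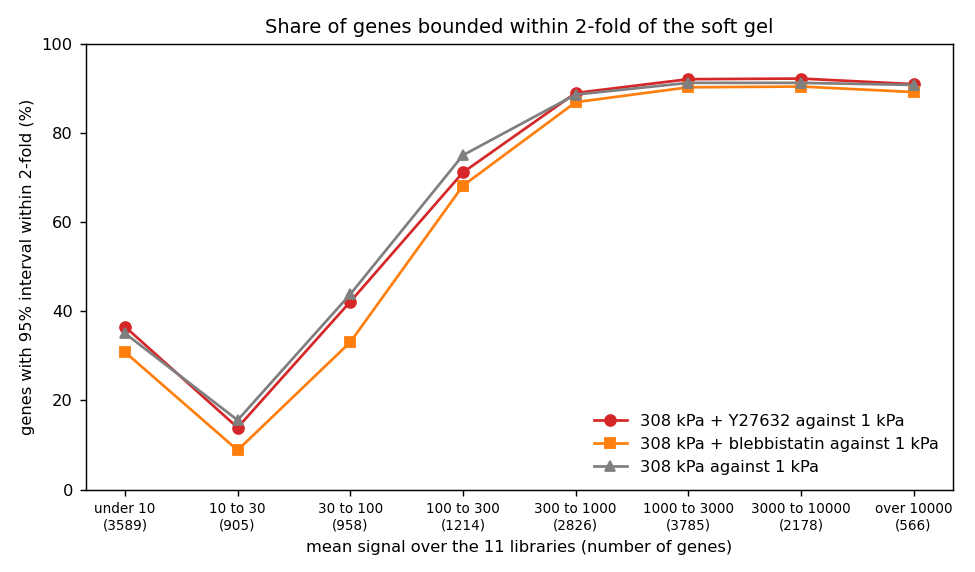
Percentage of genes whose 95% interval lies within 2-fold of the soft gel (y axis) by mean signal over the 11 libraries (x axis, gene number in brackets), for Y27, blebbistatin and untreated 308 kPa. Shares reach 92.24% with Y27 and 90.45% with blebbistatin in the range from 3000 to 10000, and are lowest from 10 to 30.

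Genes above the soft gel with Y27 included Tspan15, Ly6a, Efemp1 and Tek, and none passed the adjusted threshold. Tspan15 encodes a tetraspanin that partners the protease ADAM10 (chr10:62185396-62231218, minus strand, GRCm38); its mean lay under the median signal, so it is named for its p after its values were seen. Its signal was 247, 213 and 205 in the soft libraries, 588, 783 and 694 with Y27, 333 and 315 with blebbistatin, and 579 in library 34. The Y27 libraries were all above the others of the 3 groups, and untreated 308 kPa had 243, 223 and 329. The difference from soft was 1.62 on the log2 scale (SE 0.18, adjusted p 0.0972) with Y27 and 0.55 (95% interval 0.10 to 0.995, p 0.021, adjusted p 1) with blebbistatin. With library 34 added to the Y27 group the adjusted p was 0.0317, and without library 32 it was 0.0431. Over the 25 alternative settings the adjusted p of Tspan15 with Y27 ran from 0.0112 to 0.654, and the gene passed in 5. Y27 exceeded blebbistatin by 1.07 (95% interval 0.63 to 1.52, p 0.000381, adjusted p 0.884).

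Ly6a, the GPI-anchored surface protein also called Sca-1 (chr15:74994877-74998031, minus strand), read 7011, 7556 and 4989 in soft libraries, 16925, 22229 and 15651 with Y27, and 12105 and 10403 with blebbistatin. Every inhibited library was above every soft library, and so was library 34 at 10152, while untreated 308 kPa gave 6636, 9819 and 6345. The difference from soft was 1.49 (SE 0.22, p 7.04e-05, adjusted p 0.274) with Y27 and 0.81 (SE 0.25, p 0.0092, adjusted p 1) with blebbistatin. Its neighbour and paralog Ly6c1 read 1212, 1301 and 886 in soft and 2426, 3466 and 2867 with Y27, a difference of 1.37, against 0.56 with blebbistatin. Reads that match more than 1 Ly6 gene could be split between them, which was not tested, so both values are uncertain.

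Efemp1, which encodes the matrix glycoprotein fibulin-3 (chr11:28853204-28926743, plus strand), read 19931, 13088 and 14441 in soft, 33917, 32000 and 32925 with Y27, and 33877 and 26185 with blebbistatin. The inhibited libraries did not overlap with the soft ones, and library 34 had 29176. The differences were 1.08 (95% interval 0.55 to 1.62, p 0.00127) and 0.94 (0.34 to 1.53, p 0.00611). Untreated 308 kPa gave 27451, 14728 and 19973 and overlapped with soft. Prelp, a leucine-rich proteoglycan of the matrix, was 1.74 higher with Y27 (p 0.00421) and 1.14 with blebbistatin (p 0.0538). Sema3c, a secreted guidance factor, was 1.24 (p 0.00483) and 0.73 (p 0.0828) higher. Pdgfrl, which is related in sequence to the PDGF receptor, was 1.03 (p 0.000376) and 0.61 (p 0.0184) higher.

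Tek, the angiopoietin receptor Tie2 (chr4:94739289-94874976, plus strand), read 531, 263 and 72.3 in soft libraries 4, 16 and 28. It read 3928, 2589 and 779 in Y27 libraries 12, 24 and 36, and 1489 and 551 in blebbistatin libraries 10 and 22. Levels differed between runs of library numbers in every group, and the lowest Y27 library was above the highest soft one. Within the 3 runs Y27 exceeded soft by 2.89, 3.29 and 3.41 on the log2 scale, and blebbistatin by 1.49 and 1.06 in 2. The fitted difference was 3.20 (SE 0.90, p 0.00601, adjusted p 0.703) for Y27 and 2.06 (p 0.0706) for blebbistatin. With a block on the runs the adjusted p for Y27 was 0.0115, and this was the 1 of 25 alternative settings in which Tek passed. Library 34 had 157, within the range of the 3 soft libraries but above library 28, the soft library of its run (72.3). With library 34 in the blebbistatin group the fitted blebbistatin difference was 1.22. Tek is also 1 of the 4 endothelial markers, whose summed signal ran from 350.8 to 602.7 in soft, 1065 to 3979 with Y27 and 638.9 to 1539 with blebbistatin. Of the other endothelial markers, the receptor Kdr was at the lowest value in 7 of the 12 libraries and at most 4.44, while Pecam1 (7.87 to 70.27) and Cdh5 (30.3 to 234.4) were above it in all 12. Pecam1 differed from soft by 0.17 with Y27 (p 0.824) and Cdh5 by -0.08 (p 0.933). The summed epithelial markers ran from 226.9 to 284.5 in soft, 369.6 to 1168 with Y27 and 246.6 to 277.5 with blebbistatin, with Epcam and Krt18 at the lowest value throughout. Of the members above it, Krt14 differed from soft by 1.86 with Y27 (p 0.0772) and Cdh1 by 0.80 (p 0.0818, or 0.0136 with only the 8 libraries). Library 34 had an epithelial sum of 769.9. The muscle and immune marker sums of soft overlapped with those of both inhibitors. The part of these markers in the results was not tested. In bulk RNA, fewer or more cells of a type and a change of RNA per cell cannot be told apart.

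Spon2, a secreted matrix protein, read 685, 356 and 468 in soft, 1019, 1269 and 1079 with Y27, and 506 and 375 with blebbistatin. The Y27 libraries were above all soft ones and the blebbistatin libraries among them. The difference from soft was 1.20 (p 0.0169) and -0.15 (p 0.746), and Y27 exceeded blebbistatin by 1.36 (p 0.0162, adjusted p 0.884 or above).

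Genes below the soft gel with Y27 included proliferin and a regulator of TGF-beta signalling. Prl2c2, a proliferin of the prolactin family (chr13:12996132-13005383, minus strand), read 817, 5026 and 3096 in soft, 41.3, 568 and 119 with Y27, and 23.7 and 134 with blebbistatin. No inhibited library reached the lowest soft one, and library 34 had 235. Untreated 308 kPa spanned this gap, with 134, 4639 and 699. The difference was -4.04 (SE 1.39, p 0.0173, adjusted p 0.869) for Y27 and -5.34 (SE 1.56, p 0.00731, adjusted p 1) for blebbistatin. Within runs Y27 differed from soft by -4.28, -3.14 and -4.69, and blebbistatin by -5.05 and -5.21. Its near-identical neighbour Prl2c3 differed by -2.90 and -3.79, and reads may be divided between these copies.

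Skil, which encodes the SMAD co-repressor SnoN, read 2444, 3162 and 2733 in soft and 1217, 1351 and 1601 with Y27, a difference of -1.0 (SE 0.20, p 0.000661, adjusted p 0.323). With blebbistatin it read 1904 and 2359, a difference of -0.38 (p 0.119), and Y27 minus blebbistatin was -0.62 (p 0.0211). Alcam, a cell adhesion molecule, differed by -1.03 (p 0.00206) with Y27 and -0.43 (p 0.146) with blebbistatin. Etv4, an ETS transcription factor, differed by -1.53 (p 0.0396) and -1.04 (p 0.18). Pik3r5, a regulatory subunit of phosphoinositide 3-kinase, differed by -1.34 (p 0.0225) and -0.99 (p 0.102), and 6330416G13Rik by -1.09 and -0.99. All of these lay below soft on both inhibitors in mean, and none passed the adjusted threshold. They also lay below soft in mean on the untreated stiff gel. There Pik3r5 read 222, 963 and 891, wholly below soft (1063, 1253 and 1047), a difference of -0.96 (p 0.0809). The others overlapped with soft there: Etv4 (-0.87), Alcam (-0.44), 6330416G13Rik (-0.41) and Skil (-0.23).

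With blebbistatin the rule for named genes admitted 2 genes above and 4 below the soft gel. Hes1, a transcriptional repressor induced by Notch, read 1081, 1001 and 749 in soft and 2218 and 1583 with blebbistatin, a difference of 1.01 (SE 0.37, p 0.023). Zfp36, whose protein tristetraprolin destabilises AU-rich mRNAs, read 1307, 1003 and 749 in soft and 3879 and 1691 with blebbistatin, a difference of 1.36 (SE 0.54, p 0.0319). Nfatc1, a transcription factor activated by calcineurin, read 1225, 1551 and 1465 in soft, 650 and 732 with blebbistatin and 657, 988 and 966 with Y27. All 5 inhibited libraries were below all soft ones, and so were untreated 308 kPa (669, 1042 and 862) and library 34 (1129). The Nfatc1 difference was -1.03 (SE 0.23, p 0.00131, adjusted p 1) for blebbistatin and -0.72 (SE 0.20, p 0.00601, adjusted p 0.703) for Y27. Adding library 34 to the blebbistatin group made it -0.79. Pde4b, a cAMP phosphodiesterase, read 966, 762 and 844 in soft and 483 and 280 with blebbistatin (difference -1.21, p 0.0248), but library 34 had 1047 and the difference with it was -0.71 (p 0.178). Efs, a Cas-family adaptor of focal adhesions, had the smallest p for blebbistatin at very low signal: 9.38, 8.85 and 8.26 in soft and the lowest value in both blebbistatin libraries.

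In the mean of both inhibitors, Adm joined the genes above soft. It encodes the vasodilator peptide adrenomedullin and read 473, 255 and 293 in soft, 1250, 701 and 500 with Y27, and 1122 and 574 with blebbistatin. The difference was 1.21 (p 0.0429) with Y27 and 1.29 (p 0.0514) with blebbistatin. Over all genes, the inhibited groups lay wholly above the soft libraries for 1094 genes (6.83%) with Y27, 1655 (10.3%) with the 2 blebbistatin libraries and 431 (2.69%) with all 5. They lay wholly below it for 965 (6.02%), 1784 (11.1%) and 461 (2.88%). Untreated 308 kPa lay wholly above soft for 342 genes (2.13%) and wholly below for 424 (2.65%). Groups of fewer libraries lie apart from soft more often by chance, so shares of groups of different size cannot be set against each other.

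Vps25 and Ramp2 split the libraries into 2 sets with no value between. Vps25, a subunit of the ESCRT-II sorting complex, is annotated at chr11:101253707-101259549, plus strand, inside the span of Ramp2, a receptor activity-modifying protein, at chr11:101246028-101259546 on the same strand. Overlapping reads may be assigned to either, so the levels of each are uncertain. Vps25 held 33.1, 33.5 and 32.7% of their summed signal in the soft libraries, 4.35, 4.64 and 4.27% with Y27, 3.12 and 3.64% with blebbistatin and 3.95% in library 34. Untreated 308 kPa libraries 8 and 32 had 4.97 and 3.76%, but library 20 had 31.9%, close to soft. The libraries of the series with the dominant-negative SUN1 construct (SUN1L) showed the same split, 32.8, 33.5 and 32.5% on 1 kPa and 4.32, 31.4 and 4.16% on 308 kPa, where the middle value is library 19 of the same run as library 20. Vps25 alone differed from soft by -2.57 (SE 0.54, p 0.000975, adjusted p 0.386) with Y27 and -3.10 (SE 0.61, p 0.000578, adjusted p 1) with blebbistatin. Without library 20, its adjusted p was 0.0129 and 0.00718. Ramp2 differed by 0.84 and 0.71, and the sum of both by 0.33 (p 0.0649) and 0.18 (p 0.322). Whether libraries 19 and 20 match their labels was not tested.

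**Figure D3:**
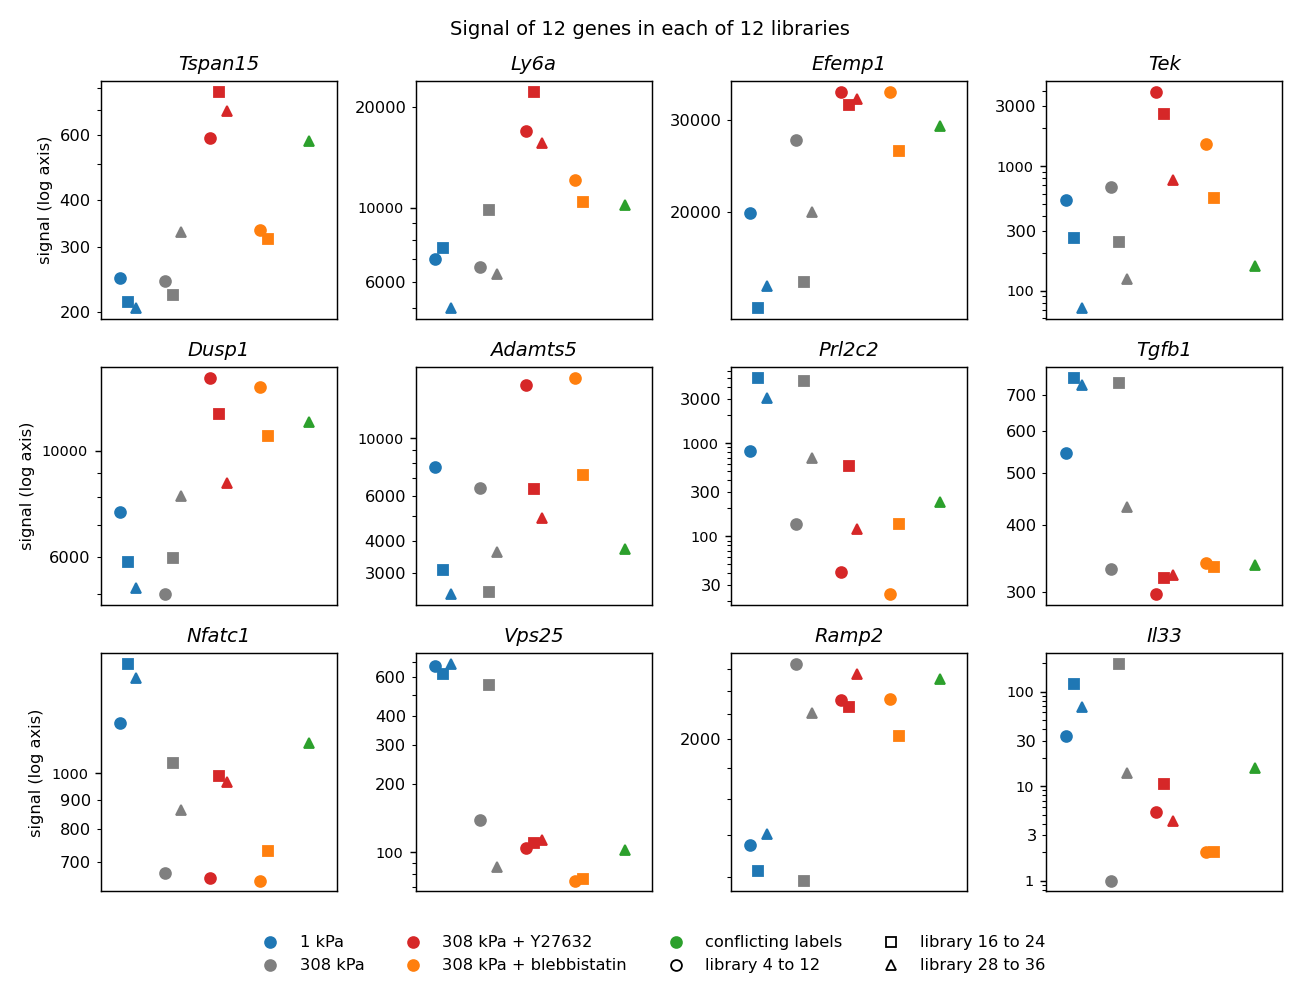
Signal (log axis) of 12 genes in each of the 12 libraries, coloured by group, with the marker giving the run of library numbers. The 3 Y27 libraries sit above the soft ones for Tspan15, Ly6a, Efemp1, Tek and Dusp1, the inhibited libraries sit below soft for Prl2c2, Tgfb1, Nfatc1 and Il33, and library 20 lies with the soft libraries for Vps25 and Ramp2.

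Few genes of the tension pathway itself reached an unadjusted p under 0.05. Of 24 genes of the myosin II pathway, 0 were higher and 1 was lower with Y27 (background 2.74% and 2.3%), with a median difference of -0.05. With blebbistatin 1 was higher and 0 lower, with a median of 0.02. The median over all genes was 0 in both. Myh9, the main myosin IIA heavy chain, read 71014, 67162 and 60060 in soft, 63880, 66091 and 59023 with Y27, and 72842 and 73364 with blebbistatin. The Y27 and soft libraries overlapped, both blebbistatin libraries were above soft, and the intervals were -0.55 to 0.42 and -0.39 to 0.69. Mylk, the myosin light chain kinase, was the lower member with Y27 (-0.58, p 0.0208), with 110, 166 and 125 in soft and 84.1, 86.2 and 93.1 with Y27. With blebbistatin Mylk read 137 and 136, and Y27 minus blebbistatin was -0.63 (p 0.0227). The intervals of 18 of 24 members lay within 2-fold for Y27 and of 21 for blebbistatin. The shares were 70.1% and 66.7% over all genes, and 91.8% and 90% above the median signal. Of 23 focal adhesion genes 0 were higher and 3 were lower with Y27 (median -0.09): Bcar1, which encodes p130Cas (-0.50, p 0.00825), the tyrosine kinase Src (-0.26, p 0.0425) and the actin regulator Vasp (-0.22, p 0.0215). Vasp was also the lower member with blebbistatin (-0.23, p 0.0316).

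The target genes of the mechanical pathways showed small median differences. Of 22 SRF/MRTF targets, 0 were higher and 2 lower with Y27 at an unadjusted p under 0.05 (median -0.13, background 2.74% and 2.3%). With blebbistatin 0 were so in either direction (median 0.06). Without library 8 the Y27 count was 0 higher and 5 lower (background 4.53% and 3.86%). At any p, 5 of 22 were above soft with Y27 and 15 with blebbistatin, against 49.1% and 47.2% of all genes. Y27 libraries lay wholly below soft for 5 members and wholly above for 1 (background 6.02% and 6.83%). Actg2, a smooth muscle actin, read 601, 659 and 363 in soft, 109, 373 and 129 with Y27 and 197 and 354 with blebbistatin. Its difference was -1.59 (SE 0.50, p 0.0113) and -0.98 (p 0.113), with 1 Y27 library inside the soft range. Acta2, the alpha actin of myofibroblasts, overlapped between the groups, with differences of -0.30 (95% interval -1.16 to 0.57) and 0.06 (-0.91 to 1.03). Of 20 YAP/TAZ targets, 0 were higher or lower with Y27 at an unadjusted p under 0.05 (median -0.04). With blebbistatin 2 were higher (median 0.28, background 1.4%). At any p, 8 of 20 were above soft with Y27 and 19 with blebbistatin, against 49.1% and 47.2% of all genes. Blebbistatin libraries lay wholly above soft for 6 members and wholly below for 0 (background 10.3% and 11.1%). The list's mean level was 11.82, 11.61 and 11.55 in soft, 12.09 and 11.87 with blebbistatin, and 11.58 in library 34. Ankrd1, a nuclear ankyrin repeat protein, read 5999, 5052 and 4772 in soft, 8037 and 7303 with blebbistatin and 6204, 4458 and 3786 with Y27. Crim1, a membrane protein that binds BMPs, read 10844, 7779 and 6077 in soft and 12495 and 12715 with blebbistatin. Their blebbistatin differences were 0.55 (p 0.0322) and 0.66 (p 0.0247), and Y27 minus blebbistatin was -0.70 (p 0.00988) and -0.74 (p 0.0138). Library 34 had 3973 and 8341, and with it in the blebbistatin group neither had an unadjusted p under 0.05 (p 0.41 and 0.0855). Ctgf, a matricellular YAP target, differed by -0.03 (-0.88 to 0.81) and 0.13 (-0.81 to 1.08).

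Of 24 matrix genes, 5 were higher and 1 was lower with Y27 at an unadjusted p under 0.05 (background 2.74% and 2.3%). As a whole the list lay near soft: 13 of 24 members were above it, against 49.1% of all genes, and the median of 0.10 was -0.05 without library 24 and 0.27 without library 36. With blebbistatin 1 was higher and 1 lower (background 1.4% and 1.59%). Lox, the lysyl oxidase that cross-links collagen, read 54512, 36230 and 29957 in soft, 83907, 64203 and 53994 with Y27, and 90990 and 60875 with blebbistatin. Its difference was 0.77 (SE 0.30, p 0.0286) and 0.93 (SE 0.33, p 0.0194), though the lowest Y27 library was under the highest soft one. Col1a2, a chain of collagen I, read 162980, 116490 and 126150 in soft and 231470, 219390 and 204490 with Y27 (0.71, p 0.0212). With blebbistatin it read 203980 and 142880, a difference of 0.35 (p 0.247). Sparc and Fbn1, which bind and build the matrix, were 0.50 (p 0.0219) and 0.85 (p 0.0292) higher with Y27. Eln, elastin, was at the lowest value in 2 of 3 soft libraries and at most 17.7 with Y27, so its difference is not read. Postn, periostin, was the lower member: 3382, 6168 and 2546 in soft, 1406, 1782 and 1073 with Y27, 2199 and 1536 with blebbistatin, and 246 in library 34. Its difference was -1.43 (SE 0.56, p 0.0297) and -1.03 (p 0.132). With library 34 in the blebbistatin group the latter was -2.0 (p 0.0299). Untreated cells on the stiff gel read 1108, 3970 and 785 for Postn and overlapped with soft. Their difference was -1.31 (p 0.0425), so Postn was also lower without inhibitor. Col6a2, a chain of collagen VI, was lower with blebbistatin (-0.58, p 0.0452) and not with Y27 (0.10, p 0.668). It was also lower on the untreated stiff gel, with 5595, 9812 and 7952 against 11400, 13830 and 12860 in soft. There 4 of 24 matrix genes were lower at an unadjusted p under 0.05 and 0 were higher (background 1.2% and 1.12%). Postn and Col6a2 were among the 4, and so was Lum. Lum read 1.88, 2.21 and 2.04 in soft and the lowest value in all 3 untreated stiff libraries, so its difference is not read.

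Of 14 proteases and inhibitors of the matrix, 2 were higher with Y27 and 1 with blebbistatin (background 2.74% and 1.4%), and 0 were lower. Adamts5, an aggrecan-cleaving protease, read 7722, 3087 and 2485 in soft libraries 4, 16 and 28, 16170, 6351 and 4905 in Y27 libraries 12, 24 and 36, and 17143 and 7185 in blebbistatin libraries 10 and 22. The groups overlapped, since the first run was high in all of them. Within runs Y27 exceeded soft by 1.07, 1.04 and 0.98, and blebbistatin by 1.15 and 1.22, against fitted differences of 1.03 (p 0.116) and 1.51 (p 0.0483). With only the 8 libraries and a block on the runs, Adamts5 passed the adjusted threshold: 1.03 (adjusted p 0.0291) for Y27, 1.17 (0.0332) for blebbistatin and 1.10 (0.0147) for both. Library 34 had 3736, above the soft library of its run by less than those differences, and with it in the blebbistatin group the difference without a block was 0.99 (p 0.156). Adamts1 was 1.12 (p 0.036) and 1.08 (p 0.0627) higher. Timp2, a metalloproteinase inhibitor, was 0.46 (p 0.0208) higher with Y27 and 0.07 (p 0.717) with blebbistatin.

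Most immediate early genes lay above the soft gel in the mean, by an amount that varied between libraries. They encode transcription factors and phosphatases induced without protein synthesis. Of 18, 15 were above soft with Y27 (median 0.51) and 16 with blebbistatin (median 0.74), against 49.1% and 47.2% of all genes above soft. At an unadjusted p under 0.05, 3 were higher with Y27 and 2 with blebbistatin (background 2.74% and 1.4%), and 0 were lower. Leaving out library 12 gave a list median of 0.18 and library 36 gave 0.88 for Y27, and leaving out library 10 gave 0.29 and library 22 gave 1.21 for blebbistatin. Dusp1, a phosphatase that inactivates MAP kinases (chr17:26505590-26508519, minus strand), read 7423, 5843 and 5159 in soft, 14218, 11968 and 8550 with Y27, and 13619 and 10720 with blebbistatin. No inhibited library overlapped with soft, and library 34 had 11516. The difference was 0.90 (SE 0.24, p 0.00401, adjusted p 0.632) and 0.99 (SE 0.27, p 0.00434, adjusted p 1). Fos read 1507, 521 and 555 in soft, 5834, 1560 and 687 with Y27 and 5679 and 1214 with blebbistatin, and the intervals reached from -0.77 to 3.33 and from -0.50 to 4.08. The list's mean level was 10.93, 10.76 and 10.35 in soft, 11.76, 11.24 and 10.38 with Y27 and 11.79 and 10.91 with blebbistatin. Library 36, the Y27 library of the third run, was near the soft library of that run. Untreated 308 kPa libraries 8, 20 and 32 had 10.13, 10.51 and 10.74. In the third run untreated library 32 was thus above both library 36 and soft, and in the other runs the untreated library was below soft. Myc and Jund were 0.61 (p 0.0437) and 0.57 (p 0.0481) higher with Y27.

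Sterol synthesis genes were above the soft gel on both inhibitors, by a small margin. They are activated together by SREBP2 when membrane cholesterol is low. Their promoters are known to combine a sterol regulatory element with CCAAT boxes bound by NF-Y. The 250 bases before the start of Hmgcs1 (chr13:119690101-119690350, plus strand, GRCm38.p6), which makes HMG-CoA, and of mevalonate kinase Mvk (chr5:114444019-114444268, plus strand) are shown from RefSeq because they hold the motifs searched for; capitals mark CCAAT or its reverse complement, and in Hmgcs1 also the sterol element TCACNCCAC.
Hmgcs1: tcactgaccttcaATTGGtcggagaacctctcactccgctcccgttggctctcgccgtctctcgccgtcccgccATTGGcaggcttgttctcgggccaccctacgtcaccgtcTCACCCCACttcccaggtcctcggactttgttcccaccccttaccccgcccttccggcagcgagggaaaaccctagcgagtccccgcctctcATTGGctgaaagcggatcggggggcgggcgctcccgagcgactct
Mvk: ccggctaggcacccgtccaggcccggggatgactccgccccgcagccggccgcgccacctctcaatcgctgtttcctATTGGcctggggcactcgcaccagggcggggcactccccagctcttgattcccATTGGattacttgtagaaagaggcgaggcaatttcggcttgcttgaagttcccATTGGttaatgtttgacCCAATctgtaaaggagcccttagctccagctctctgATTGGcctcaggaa
RefSeq windows matched 14 of the 22 listed genes, in 17 windows. CCAAT occurred on either strand in 14 of 17 windows and in 33.8% of 32851 windows of all genes. The element TCACNCCAC occurred in 1 of 17 (Hmgcs1, beginning 137 bases before the start) and in 1.05% of all windows. Other forms of the element were not searched, and a match is a description of these letters only.

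Of 22 sterol genes, 21 were above soft with Y27 (median 0.37) and 21 with blebbistatin (median 0.24), and 0 had an unadjusted p under 0.05 in either (background 2.74% and 1.4% higher). The groups did not overlap for 16 with Y27 and 16 with blebbistatin, all higher (background 6.83% and 10.3%). Library 8 held 9.58 as the mean log2 level of the list, against 11.55 to 12.03 in the other libraries, and entered the estimate of spread of these genes. Without it 16 of 22 had an unadjusted p under 0.05 with Y27 (background 4.53% higher) and 4 with blebbistatin (2.47%), and 0 passed the adjusted threshold (smallest adjusted p 0.179 and 0.828). The list's level was 11.55, 11.59 and 11.55 in soft, 11.82, 12.03 and 11.97 with Y27, 11.83 and 11.70 with blebbistatin, and 11.98 in library 34. Untreated libraries 20 and 32 had 11.66 and 11.58. Mvk read 2440, 2307 and 2336 in soft, 3330, 3737 and 3681 with Y27, and 3026 and 2710 with blebbistatin, which put every inhibited library above soft. Its difference was 0.60 (95% interval -0.18 to 1.38) and 0.28 (-0.59 to 1.15). Hmgcs1 read 11040, 9183 and 10190 in soft, 13160, 10470 and 14250 with Y27 and 13630 and 10300 with blebbistatin, overlapping with soft in both. Mvd, the decarboxylase that makes isopentenyl diphosphate, was 0.73 higher with Y27 and 0.20 with blebbistatin. Insig1, which retains SREBP in the endoplasmic reticulum, was 0.56 and 0.34 higher.

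**Figure D4:**
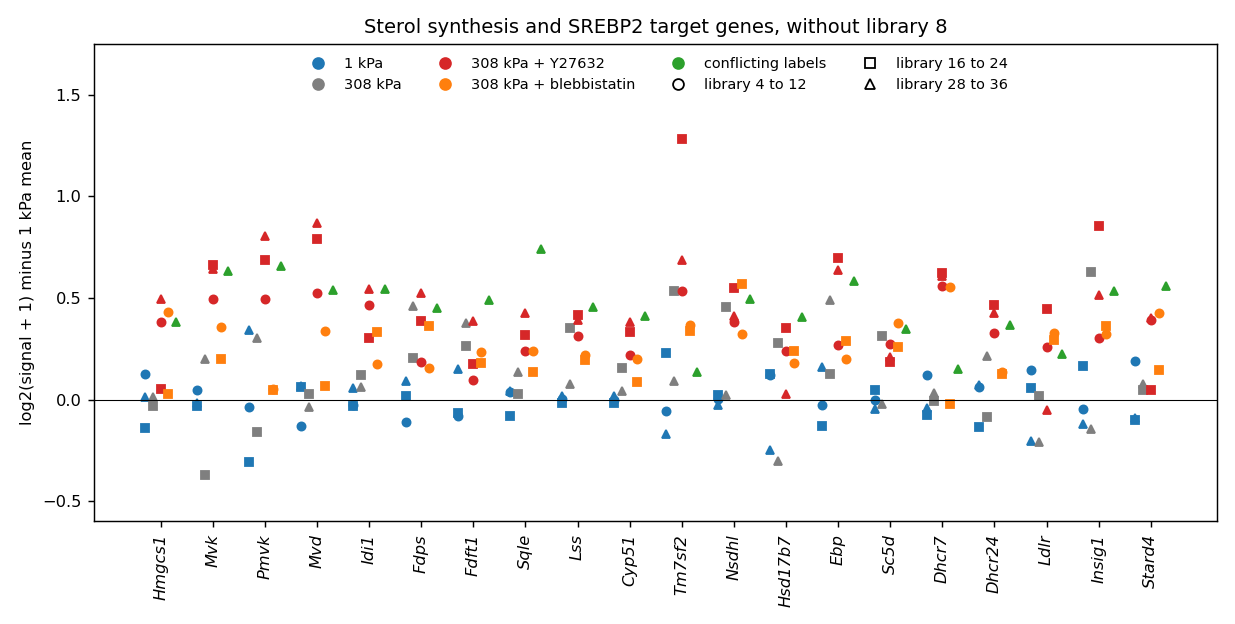
Log2(signal + 1) of 20 of the 22 sterol genes in each library minus the mean of the 3 soft libraries (y axis); library 8 is not drawn. Most Y27 points lie above the soft points, as for Mvk (0.60 in mean), with blebbistatin points between or beside them.

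Genes of cell division and most other lists held few or no members at an unadjusted p under 0.05. Over all genes the shares were 2.74% higher and 2.3% lower with Y27, and 1.4% and 1.59% with blebbistatin. A count of 0 or 1 in a short list is therefore not read as a result about that list. Of 30 G2/M genes 0 had an unadjusted p under 0.05 in either direction, with medians of -0.05 and -0.11. The G2/M mean level was 11.86, 11.64 and 11.98 in soft, 11.67, 11.76 and 11.92 with Y27, and 11.52 and 11.93 with blebbistatin, which overlap. The interval lay within 2-fold for only 1 of 30 with Y27 and 0 with blebbistatin (background 70.1% and 66.7%). The fit holds library 8 at 9.22. Of 24 S phase genes 0 had an unadjusted p under 0.05, with medians of -0.05 and -0.09. Of 15 growth arrest genes, 1 was higher with Y27: Klf4, a zinc finger factor, with 10102, 9873 and 7516 in soft and 15376, 22183 and 11851 with Y27 (0.81, p 0.00861), and 0.55 (p 0.0751) with blebbistatin. No hypoxia, unfolded protein response, interferon or AhR gene reached an unadjusted p under 0.05, of 18, 16, 14 and 7. Among 15 LINC complex and lamina genes, 14 were bounded within 2-fold on each inhibitor. This is near the share of all genes above the median signal, 91.8% with Y27 and 90% with blebbistatin. Sun1 was the member with an unadjusted p under 0.05, 0.22 (p 0.048) higher with Y27. Of 11 NRF2 targets, Txnrd1 and Srxn1 were lower (-0.33 and -0.41) and G6pdx 0.23 higher with Y27. The cystine transporter Slc7a11 was higher with blebbistatin, at 488 and 456 against 246, 217 and 306 in soft (0.89, p 0.0054). On the untreated stiff gel 2 NRF2 targets, Slc7a11 and G6pdx, were higher than soft at an unadjusted p under 0.05. There 0 were lower (background 1.12% higher and 1.2% lower).

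Of 14 fibroblast cytokine and chemokine genes, 2 were lower with Y27 and 1 with blebbistatin at an unadjusted p under 0.05. The background was 2.3% and 1.59%. Tgfb1 was lower on both inhibitors. Tgfb1, the growth factor that drives matrix production (chr7:25687002-25705077, plus strand), read 546, 753 and 731 in soft, 297, 319 and 323 with Y27 and 340 and 334 with blebbistatin. The inhibited libraries lay in a narrow band below every soft library, and library 34 had 337. The difference was -1.10 (SE 0.26, p 0.00212, adjusted p 0.527) and -0.99 (SE 0.29, p 0.00761, adjusted p 1). Untreated 308 kPa spanned both levels, with 332 and 432 in libraries 8 and 32 and 738 in library 20. Hgf, hepatocyte growth factor, was lower with Y27 (-1.62, p 0.0493) and differed by -0.60 (p 0.475) with blebbistatin. Il33, an alarmin chosen after its values were seen, showed the same arrangement of libraries as Tgfb1: 33.8, 119 and 69.4 in soft, 5.28, 10.5 and 4.3 with Y27, 1.99 and 2.02 with blebbistatin, and 195 in library 20 but 1 and 13.7 in libraries 8 and 32. Its difference was -3.20 (p 0.0396) and -4.47 (p 0.0146).

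**Figure D5:**
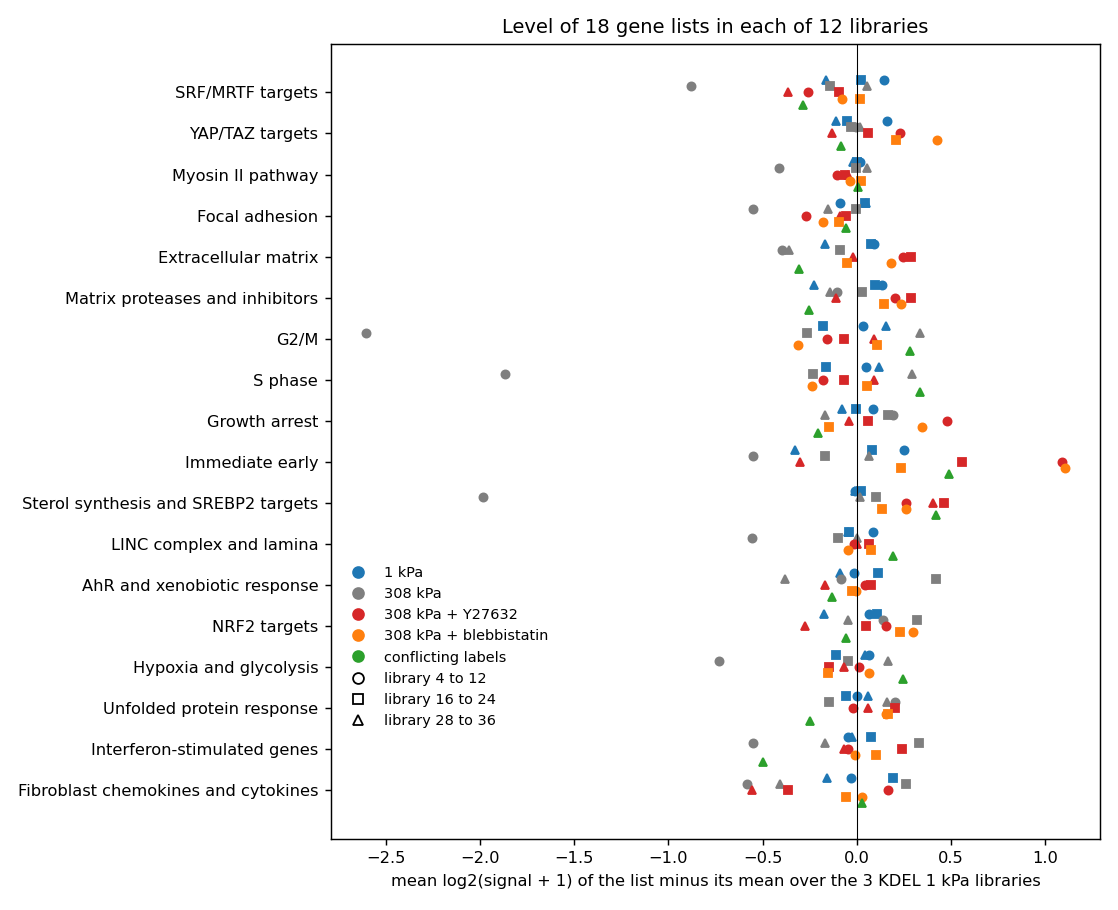
Mean log2(signal + 1) of 18 gene lists in each of 12 libraries minus the mean of the 3 soft libraries (x axis), coloured by group. Y27 libraries lie above soft for the sterol list (11.82 to 12.03 against 11.55 to 11.59), and library 8 lies far below the others for the G2/M, S phase and sterol lists.

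The 2 inhibitors were also set against each other, since they block tension at different steps. 0 of 16021 genes passed the adjusted threshold for Y27 against blebbistatin, with 461 at an unadjusted p under 0.05 and a smallest adjusted p of 0.884. Doses were those of the study, 25 µM and 10 µM, and were not matched.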

How the data were processed

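Polyadenylated RNA of KDEL cells was sequenced in pairs. Per the labels, FastQC, TopHat2 (2.0) and SAMtools were used, and mm9 is named, whereas positions in the table lie on GRCm38. The authors deposited 1 table of normalised signal (AvadisNGS, TMM scaling), with values under 1 set to 1. Signal is a scaled read count, so depth could be estimated only from the value of 1 read pair (1.76 to 2.21), and no count test was run, because only 41.8 to 44.6% of low values were whole multiples within 0.02. No column carried the number of library 34. It was matched by heading to the column Empty Vector-308 kPa-Y27, which carries another library number, so its number is in conflict as well. Log2(signal + 1) of 11 libraries was fitted in limma 3.58.1 (R 4.3.3, trended eBayes), with a gene called at an adjusted p under 0.05 and at least 2-fold, after tests on simulated data. Named genes were non-overlapping genes above the median signal with the smallest p (up to 8 a direction), plus list members at an unadjusted p under 0.05 and the first 3 of each list. The samples, lists and comparisons were chosen with earlier results of these data known. The methods state 3 biological replicates per condition, and the labels number none. An exact permutation test of 3 against 3 cannot go below 0.1, or of 2 against 3 below 0.2, so none is given. Promoter windows of 250 bases came from RefSeq (GRCm38.p6). Alternatives covered pseudocounts, filters, weights, blocks and left-out libraries. The authors' own comparisons were not used. Some genes that the rule admits are not reported here.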

Additional observations from a re-analysis of the deposited data

How the results depend on the processing

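Of the 25 alternative settings, these changed a count of calls from 0. Y27 gave 1 with library 34 added, with a mean of at least 10, with the runs of library numbers as a block, and with 3 groups and library 34 as blebbistatin; 3 with only the 8 libraries; 2 with 8 libraries and the block; and 13 with array weights. Blebbistatin gave 2 with only the 8 libraries, 2 with the block added, 1 with array weights and 1 with 3 groups and library 34. Both inhibitors gave 3, 2, 3 and 1 in these 4 settings. Leaving out 1 library gave 0 to 1 for each of these and 0 to 2 for untreated 308 kPa (2 without library 20). Genes bounded within 2-fold ranged from 10370 to 11920 for Y27, 8706 to 11510 for blebbistatin, 10850 to 12490 for both and 10240 to 11830 for untreated 308 kPa when 1 library was left out, and were 16880, 16370 and 16850 for Y27, blebbistatin and untreated 308 kPa with no filter, which tests more genes. Distances were lower with a pseudocount of 8, or a mean of at least 10: soft to soft to 0.3483 or 0.4249, Y27 to soft to 0.3983 or 0.4854, blebbistatin to soft to 0.3651 or 0.4458, Y27 to untreated 308 kPa without library 8 to 0.4392 or 0.5355, and blebbistatin to it to 0.4116 or 0.5008. Vps25 summed with Ramp2 reversed its sign, to 0.3266 with Y27, 0.1823 with blebbistatin and 0.2544 with both. Of 96 comparisons of named genes, 96 kept their sign in every other alternative and 12 passed the adjusted threshold in at least 1, among them Tspan15, Vps25 and Efs (adjusted p 0.0451 for Efs with blebbistatin without library 8). No paired analysis was possible on replicate numbers, because the labels give none. A fit with runs of library numbers as a block was made instead, under which Tek passed for Y27 (adjusted p 0.0115) and, with only the 8 libraries, Adamts5 and Vps25 for both inhibitors.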
